A study of Mus musculus with 2 samples.

Results

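The Hedgehog pathway receptors and Gli factors were followed here across the cell classes of the embryonic mouse dorsal telencephalon. The set was given by name and holds 7 genes of the 32285 in the count tables: the receptor Ptch1, the signal transducer Smo, the co-receptor Gas1, the Gli-binding protein Sufu and the transcription factors Gli1, Gli2 and Gli3. Rows were matched by symbol, and all 7 were found (Ptch1, ENSMUSG00000021466; Smo, ENSMUSG00000001761; Gli1, ENSMUSG00000025407; Gli2, ENSMUSG00000048402; Gli3, ENSMUSG00000021318; Gas1, ENSMUSG00000052957; Sufu, ENSMUSG00000025231). Across all 3153 cells they gave between 51 UMIs (Gli1) and 25852 UMIs (Gli3), where a UMI is a molecular tag marking a single captured transcript.

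The cells came from the dorsal telencephalon of wild-type (WT) embryos at embryonic day 14.5, dissociated with papain and sequenced as single cells captured in droplets, in 2 libraries called replicate 2 and replicate 4 after their titles. Both titles name the EomesDot line, while the methods of the study describe C57BL/6J embryos, and how the names relate is not stated. Both libraries carried the same genotype, age and treatment, so the comparisons run between cell classes and not between groups of animals. Whether each library held 1 embryo or several is not stated in the sources used here, and p-values measure only the spread between these 2 libraries.

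Hedgehog signalling starts when a ligand (Shh, Ihh or Dhh) binds Ptch1, helped by the co-receptors Gas1, Cdon and Boc. Without ligand, Ptch1 holds Smo inactive, Sufu retains the Gli proteins and Gli3 is cut to a repressor of transcription. With ligand, Smo is released at the primary cilium and Gli2 acts mainly as an activator, which raises transcription of Gli1 and Ptch1. In the forebrain the pathway patterns the ventral telencephalon, where Shh is made, and the Gli3 repressor is needed to form the dorsal telencephalon.

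Cells were grouped into classes from marker lists, and neither the 7 genes nor 48 other pathway genes served as variable genes, although genes correlated with them did. The RGC-like class (radial glia, the primary cortical progenitors) held 243 cells in replicate 2 and 425 in replicate 4, the IPC-like class (intermediate progenitors, which arise from radial glia) 194 and 300, and the excitatory neuron-like class 515 and 806. MGE interneuron-like cells, whose medial ganglionic eminence origin lies in the ventral telencephalon, numbered 54 and 82. Hem or choroid plexus-like cells, from the dorsal midline, numbered 33 and 22, and meningeal fibroblast-like cells 19 and 36. Every marker of the RGC, IPC and excitatory neuron lists had UMIs in its own class, but the same lists named the classes. All 12 RGC markers also had UMIs in IPC-like and excitatory neuron-like cells, so this does not separate the classes. The tables held 40267872 and 49422007 UMIs, the median cell had 30810 and 22948.5 UMIs, and 3 barcodes occurred in both libraries. Replicate 4 had 66 of the 67 striatal projection neuron-like cells, and that class enters no comparison.

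The 250 bases before the annotated start of each gene are given for Gli2, Gli3 and Gas1, which were all called lower in excitatory neuron-like than in RGC-like cells and had 0 to 3 UMIs in MGE interneuron-like cells, and for Ptch1, which had another order of levels. They are from RefSeq on GRCm38.p6, the assembly behind the mm10 build named in the processing notes of the submitters. The table held 6 of the 7 genes, without Gli1. Each is written 5′ to 3′ on the strand of its gene, and capitals mark matches to CCACCC or its reverse complement, the core of the sequence bound by Gli proteins.
Gli2, chr1:119053620-119053869, minus strand: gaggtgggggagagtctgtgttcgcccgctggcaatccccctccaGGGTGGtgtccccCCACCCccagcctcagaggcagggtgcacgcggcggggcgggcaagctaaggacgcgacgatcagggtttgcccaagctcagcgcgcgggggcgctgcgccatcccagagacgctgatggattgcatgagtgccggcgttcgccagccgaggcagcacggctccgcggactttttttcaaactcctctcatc
Gli3, chr13:15463473-15463722, plus strand: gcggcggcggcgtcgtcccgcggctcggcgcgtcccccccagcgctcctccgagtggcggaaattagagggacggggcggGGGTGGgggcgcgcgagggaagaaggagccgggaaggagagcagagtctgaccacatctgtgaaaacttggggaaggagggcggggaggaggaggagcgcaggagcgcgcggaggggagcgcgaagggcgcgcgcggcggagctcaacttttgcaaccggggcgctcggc
Gas1, chr13:60177536-60177785, minus strand: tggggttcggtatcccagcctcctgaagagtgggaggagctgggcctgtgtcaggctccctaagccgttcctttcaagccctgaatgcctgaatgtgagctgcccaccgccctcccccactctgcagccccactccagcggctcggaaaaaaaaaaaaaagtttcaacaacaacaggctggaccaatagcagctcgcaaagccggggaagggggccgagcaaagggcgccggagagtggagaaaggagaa
Ptch1, chr13:63565736-63565985, minus strand: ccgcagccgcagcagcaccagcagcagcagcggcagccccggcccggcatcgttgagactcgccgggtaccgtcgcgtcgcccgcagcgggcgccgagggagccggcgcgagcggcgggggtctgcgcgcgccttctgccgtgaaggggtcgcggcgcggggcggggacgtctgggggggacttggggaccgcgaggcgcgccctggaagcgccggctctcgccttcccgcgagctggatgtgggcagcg

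These windows were rich in G and C, at 67.2% in Gli2, 72.8% in Gli3, 58.8% in Gas1 and 78.4% in Ptch1, against a median of 52.4% over all 32851 windows in the table. The longer consensus GACCACCCA, which contains the core, occurred on either strand in none of the 6 windows and in 0.225% of all windows. The core CCACCC occurred at 2 positions in Gli2, beginning 205 and 192 bases before the start, at 1 position in Gli3 (170 bases before) and at 1 in Smo (162 bases before), and it occurs in 28.1% of all windows. The matches are letters in a window and were not tied to binding or to expression.

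Levels are given as CPM, the UMIs of a gene per 1e+06 UMIs of the class in that library. Gli3, the main repressor among the Gli factors, was steeply graded. It stood at 1035 CPM in replicate 2 and 1028 CPM in replicate 4 in RGC-like cells, at 190 and 206 CPM in IPC-like cells and at 19.8 and 31.8 CPM in excitatory neuron-like cells. MGE interneuron-like cells had 1 and 2 Gli3 UMIs, or 0.803 and 1.80 CPM. This low level depends on where a few cells fall: cluster 3, which holds all 54 cells of the class in replicate 2 and 79 of 82 in replicate 4, has 3 further cells of replicate 4 that sub-clustering placed elsewhere. Of these, 2 carry 36 Gli3 UMIs, and the 3 together have 3 Gli2 and 2 Gas1 UMIs. The whole of cluster 3 had Gli3 at 0.803 and 32.7 CPM, which in replicate 4 is at the level of excitatory neuron-like cells. As classes were drawn, the libraries of these 4 classes did not overlap. RGC-like cells were 21.2% of the cells and held 77.8% of all Gli3 UMIs. Hem or choroid plexus-like cells (200 and 278 CPM), meningeal fibroblast-like cells (288 and 149 CPM) and GABAergic cells without a sub-class (149 and 275 CPM) lay around the IPC-like level, and overlapped with it and with each other.

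Gas1, a membrane-anchored co-receptor that binds Shh, had the largest share of its UMIs in radial glia of the 7 genes. Its level was 296 CPM in replicate 2 and 295 CPM in replicate 4 in RGC-like cells, 34.9 and 26.3 CPM in IPC-like cells and 1.20 and 2.37 CPM in excitatory neuron-like cells. In MGE interneuron-like cells it had 0 UMIs in both libraries. That share was 87.0%. Meningeal fibroblast-like cells came next at 106 and 52.6 CPM and overlapped with hem or choroid plexus-like cells at 46.4 and 63.9 CPM.

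Gli2 stayed high one step further along the lineage. It stood at 227 and 208 CPM in radial glia and at 139 and 161 CPM in intermediate progenitors, without overlap, before the level dropped to 18.3 and 24.0 CPM in excitatory neuron-like cells. Cajal-Retzius cell-like cells, an early-born neuron of the cortical surface, had 110 and 53.8 CPM. That class had 16 and 24 cells, of which 6 and 12 had a Gli2 UMI. MGE interneuron-like cells again had 0 UMIs in both libraries, among 2354980 UMIs in all.

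Smo, the transducer held in check by Ptch1, had a shallower gradient than Gli3 and Gas1. Its level was 103 and 107 CPM in RGC-like cells, 54.1 and 65.7 CPM in IPC-like cells, 48.2 and 47.8 CPM in MGE interneuron-like cells and 21.6 and 24.5 CPM in excitatory neuron-like cells. Hem or choroid plexus-like cells at 90.2 and 97.2 CPM and meningeal fibroblast-like cells at 117 and 80.4 CPM overlapped with each other, and the latter with RGC-like cells. Sufu, which holds Gli proteins in the cytoplasm, was highest in IPC-like cells, at 89.4 and 84.4 CPM, against 59.4 and 65.7 CPM in RGC-like, 35.5 and 38.9 CPM in excitatory neuron-like and 24.1 and 14.4 CPM in MGE interneuron-like cells.

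Ptch1, at once the receptor and a target of the pathway, had another order. The highest levels were in meningeal fibroblast-like cells (80.4 and 97.6 CPM) and hem or choroid plexus-like cells (108 and 69.4 CPM), which overlapped. GABAergic cells without a sub-class followed at 51.8 and 59.1 CPM and MGE interneuron-like cells at 28.1 and 27.9 CPM. RGC-like cells had 22.1 and 21.2 CPM, excitatory neuron-like cells 9.89 and 11.04 CPM and IPC-like cells 3.54 and 9.81 CPM. Outside the classes with enough cells in both libraries, replicate 4 had 60.02 CPM in 66 striatal projection neuron-like cells (62 UMIs). It had 57.0 CPM in 28 CGE interneuron-like cells (17 UMIs). In replicate 2 the 1 striatal projection neuron-like cell had 0 UMIs, and the 5 CGE interneuron-like cells had 1 UMI (12.5 CPM).

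Gli1, whose transcription is a standard readout of the activated pathway, was barely detected. RGC-like cells had 10 and 17 UMIs (1.21 and 1.51 CPM), and meningeal fibroblast-like cells 6 and 8 UMIs (7.54 and 7.65 CPM), the highest level of any class. These classes held 52.9% and 27.5% of its 51 UMIs. IPC-like cells had 4 and 1, excitatory neuron-like cells 2 and 1, and hem or choroid plexus-like cells 1 and 0. In MGE interneuron-like cells 0 of 136 cells had a UMI, which allows up to 2.21% of cells with a UMI at this depth. Intervals and limits of this kind cover counting error only, and not cells whose transcripts were missed. Gli1 did not pass the filter on low counts, so 6 of the 7 genes were tested.

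**Figure D1:**
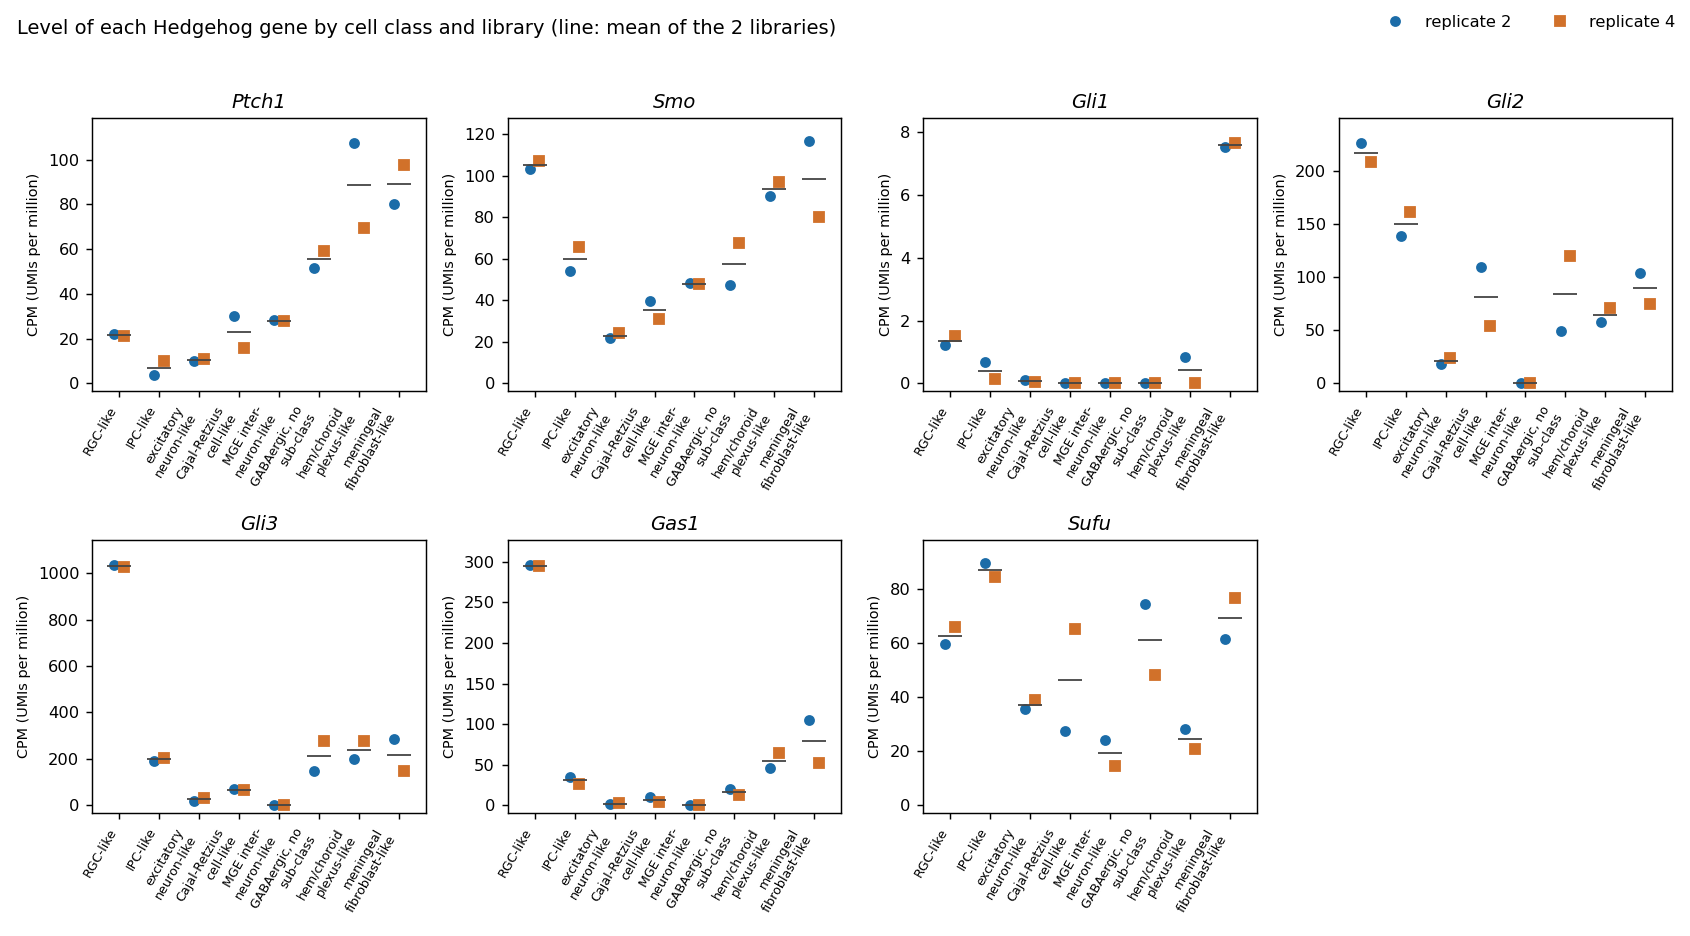
Level of each Hedgehog gene (vertical axis, CPM, scale differing between panels) in 8 cell classes, those with 10 or more cells per library (horizontal axis). Circles are replicate 2, squares replicate 4 and lines their mean. Gli3 and Gas1 peak in RGC-like cells (1035 and 1028 CPM, 296 and 295 CPM), Sufu in IPC-like cells, and Ptch1 in hem or choroid plexus-like and meningeal fibroblast-like cells.

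The ligands were scarce in the same cells. Shh had 16 UMIs in all, of which MGE interneuron-like cells held 1 and 6 and GABAergic cells without a sub-class 0 and 5. Those 5 UMIs lay in a sub-cluster of 26 cells of replicate 4 with Sst and Npy among its leading genes. That sub-cluster raised 4 of 9 MGE and 2 of 6 CGE markers and was given no sub-class because the CGE marker Nr2f2 was among its leading genes. Shh had 0 UMIs among 19520774 in RGC-like cells. A floor of 3 counts over that class lies 19.3-fold below the pooled 2.97 CPM of MGE interneuron-like cells. The latter level rests on 1 and 6 UMIs, mostly of replicate 4, and the fold leaves out their counting error. Ihh had 5 UMIs in all, 2 and 1 of them in hem or choroid plexus-like cells, and Dhh had 10.

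The first comparison asked how the genes differ between radial glia and intermediate progenitors. Of the 6 genes tested, 4 were higher in RGC-like cells and 0 lower, against 16.9% of all 12945 genes called higher and 15.4% called lower. Gas1 was higher by a log2 fold change of 3.20 (SE 0.31, adjusted p = 1.88e-05), Gli3 by 2.31 (SE 0.32, adjusted p = 0.000157), Ptch1 by 1.58 (SE 0.33, adjusted p = 0.0028) and Smo by 0.74 (SE 0.18, adjusted p = 0.00623), each in both libraries. Gli2 at 0.46 (SE 0.29, adjusted p = 0.256) and Sufu at -0.55 (SE 0.25, adjusted p = 0.118) did not pass. Sufu was called lower in thinned cells (-0.77, adjusted p = 0.0166) and in a fit of these classes alone (adjusted p = 0.00394, range over alternatives 0.00394 to 0.56), and Gli2 higher in the latter (0.43, adjusted p = 0.0209, range 0.0209 to 0.731). The median of the 6 was 1.16 against 0.02 over all genes tested. With each cell thinned to 5000 UMIs, Ptch1 at 0.99 (adjusted p = 0.0553, range over alternatives 2.49e-08 to 0.0553) and Smo at 0.53 (adjusted p = 0.105, range 7.93e-05 to 0.105) were no longer called. Ptch1 had 21 and 73 UMIs in IPC-like cells, and its log2 fold change was 2.61 without replicate 4, 2.18 with doublets kept and 2.28 with the IPC-like cluster that raised excitatory neuron markers counted as neurons.

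Among 48 other genes of the pathway, 42 were tested in this comparison, of which 10 were higher and 7 lower in RGC-like cells, beside 16.9% and 15.4% of all genes. The co-receptor Cdon, at 997 and 1049 CPM against 313 and 293 CPM, was higher by 1.68, and Evc, a ciliary protein that acts with Smo, by 2.15. Stk36, the Fused-family kinase, was lower by a log2 fold change of -2.06, at 8.22 and 7.38 CPM against 30.5 and 31.3 CPM. By list, 2 of 3 co-receptors and membrane inhibitors and 3 of 4 target genes, Ptch1 among them, were higher with 0 lower, while regulators of Gli gave 1 higher and 4 lower of 11.

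Between radial glia and excitatory neurons, 5 of the 6 genes were higher in RGC-like cells and 0 lower, with 27.5% of all genes called higher and 25.9% lower. The log2 fold change was 7.17 for Gas1 (SE 0.39, adjusted p = 5.87e-08), 5.15 for Gli3 (SE 0.36, adjusted p = 1.76e-07), 3.19 for Gli2 (SE 0.31, adjusted p = 4.07e-06), 2.03 for Smo (SE 0.18, adjusted p = 9.91e-07) and 0.88 for Ptch1 (SE 0.29, adjusted p = 0.0218). Sufu at 0.59 (SE 0.25, adjusted p = 0.0664) did not pass, and passed in 5 of 15 alternatives, among them the library as a block (0.59, adjusted p = 0.0466, range 0.00308 to 0.459). Ptch1 was not called when clustering and testing used separate portions of the counts (0.63, adjusted p = 0.0881, range 0.00159 to 0.0881). The Gas1 value was 7.91 without replicate 4, and with at most 5% mitochondrial UMIs Gli3 was 6.27 and Gli2 3.82. The median of the 6 genes was 2.61 against 0.02 over all genes. Gli1 was called higher in the fits that did test it, by 3.50 with all genes of at least 1 count (adjusted p = 0.0024) and by 3.81 with only these classes in the fit (adjusted p = 0.00175), on 27 against 3 UMIs.

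Of the 42 other pathway genes tested, 12 were higher and 11 lower, shares near the 27.5% and 25.9% over all genes. Nek2, a centrosomal kinase, was higher by 5.65, Ccnd1, the cyclin D1 gene and a listed target, by 3.98 and Cdon by 3.1. Both Nek2 and Ccnd1 are genes of dividing cells. Ligands and their release gave 1 higher and 2 lower of 5, regulators of Gli 2 higher and 4 lower of 11, and primary cilium genes 4 higher and 3 lower of 10, beside the same 27.5% and 25.9% of all genes.

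Intermediate progenitors kept most of the set above the neurons. Of the 6 genes 5 were higher in IPC-like than in excitatory neuron-like cells and 0 lower, with 16.8% of all genes called higher and 15.9% lower. Gas1 was higher by 3.97 (SE 0.36, adjusted p = 7.83e-06), Gli3 by 2.84 (SE 0.33, adjusted p = 3.13e-05), Gli2 by 2.73 (SE 0.31, adjusted p = 4.00e-05), Smo by 1.29 (SE 0.18, adjusted p = 0.000127) and Sufu by 1.13 (SE 0.25, adjusted p = 0.00405). The Gas1 value was 4.83 without replicate 4. With at most 5% mitochondrial UMIs the Gli3 value was 3.99 and the Gli2 value 3.32. Ptch1 alone pointed the other way, at -0.70 (SE 0.33, adjusted p = 0.13), and did not pass. It ranged from -0.10 in thinned cells (adjusted p = 0.891) to -1.43 when the IPC-like cluster with excitatory neuron markers was counted with the neurons (adjusted p = 0.00161), and it was called lower in 6 of 15 alternatives. It was -1.45 without replicate 4 and -0.16 without replicate 2.

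Of the 42 other pathway genes, 7 were higher and 7 lower, shares near the 16.8% and 15.9% over all genes. Nek2 was higher in IPC-like cells by 4.45 and Ccnd1 by 3.61. Scube3, a secreted protein of the family that helps release Hedgehog ligands, was lower by a log2 fold change of -3.14, at 0.843 and 0.940 CPM against 8.14 and 7.12 CPM in excitatory neuron-like cells. The median over the 42 was -0.01 against 0.04 over all genes, while that of the 6 Hedgehog genes was 2.01.

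**Figure D2:**
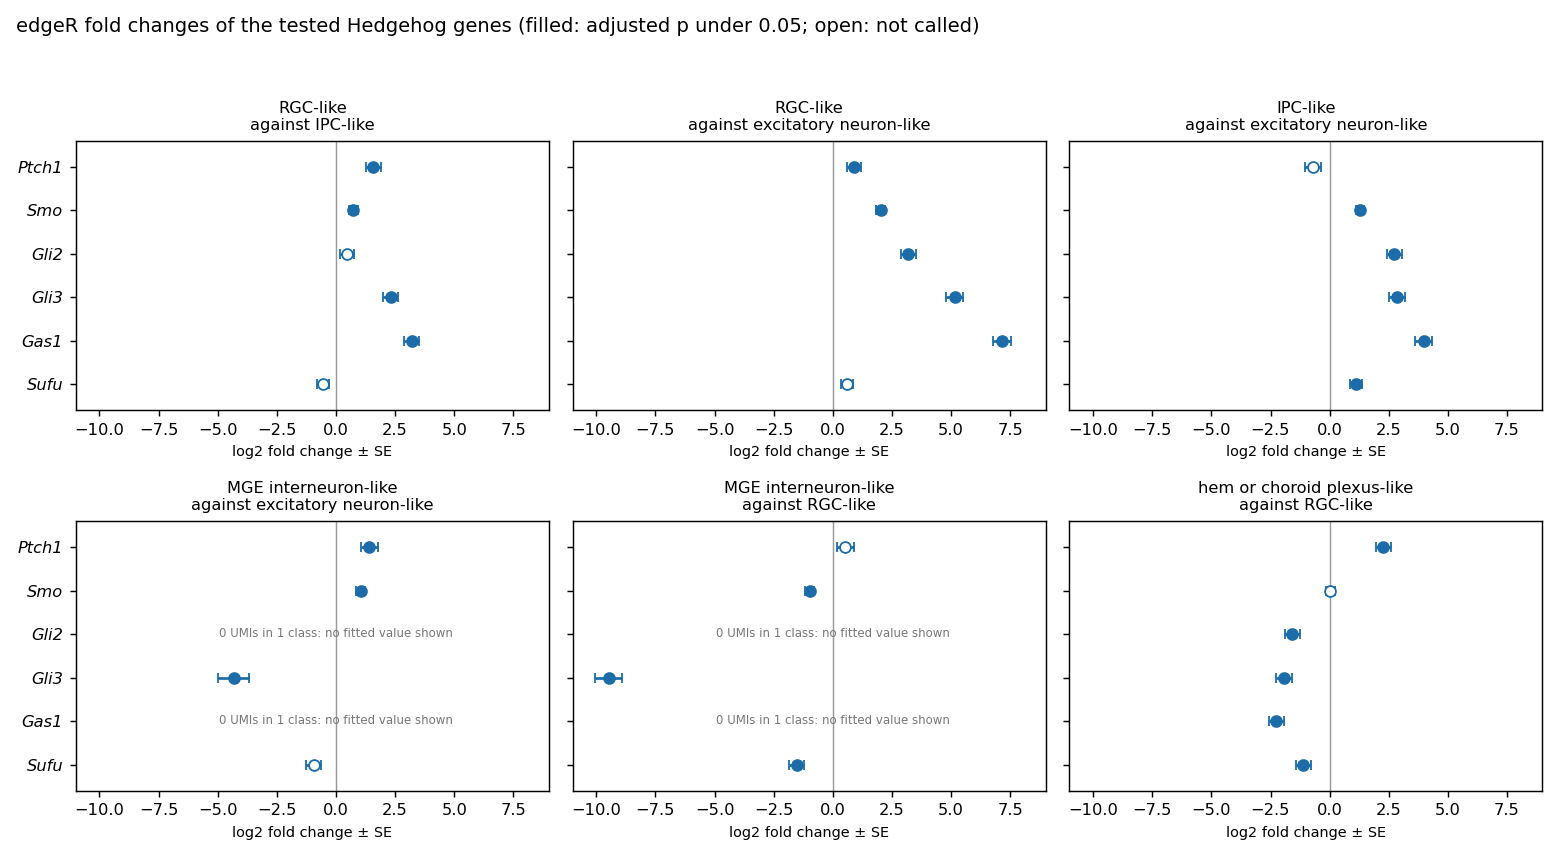
Fold changes of the 6 tested Hedgehog genes (vertical axis) in 6 comparisons of cell classes, as log2 fold change of the first class over the second with its standard error (horizontal axis, edgeR on sums of 2 libraries a class). Filled points have an adjusted p under 0.05, open points do not, and no fitted value is drawn where a class had 0 UMIs. Gas1 and Gli3 lie farthest from 0 in the comparisons of the excitatory lineage, and Ptch1 is the only gene called higher in hem or choroid plexus-like cells.

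The gradient was also seen between clusters inside these classes, which are given as values without a test because clusters were defined on the same cells. The classes tested above are groups of these clusters, so the same limit holds for their p-values. The RGC-like class held 3 clusters. Cluster 6 and the dividing cluster 7, led by Top2a and Mki67, had Gli3 between 1074 and 1123 CPM and Gas1 between 287 and 346 CPM over both libraries. Gas1 was among the 10 leading genes of cluster 6. Cluster 8, led by Gabrb1, Ltbp1 and Tnc, with 4 of 8 IPC markers raised, had Gli3 at 600.0 and 647 CPM and Gas1 at 158 and 146 CPM. Gli2 differed little between the 3 clusters, from 195 to 233 CPM.

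In the IPC-like class, cluster 0, led by Eomes, had Gas1 at 52.2 and 37.2 CPM, and the dividing cluster 16 had 18.5 and 23.9 CPM. Cluster 4, also led by Eomes but with 7 of 13 excitatory neuron markers raised, had 2.20 and 8.18 CPM. Gli2 changed between the same clusters, from 172 and 207 CPM in cluster 0 and 149 and 204 CPM in cluster 16 to 43.3 and 36.3 CPM in cluster 4. Sufu was 102 and 81.7 CPM in cluster 0 and 67.5 and 106 CPM in cluster 4, which overlapped. Ptch1 had 5 and 46 UMIs in cluster 4, or 3.67 and 23.5 CPM, of the 21 and 73 UMIs in the whole class. In replicate 4 this cluster thus held most of the Ptch1 UMIs of the class. Cluster 0 had 13 and 8 Ptch1 UMIs, or 3.67 and 2.17 CPM.

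Excitatory neuron-like clusters fell apart by whether IPC markers were raised. The 3 with raised IPC markers (clusters 1, 2 and 11) had Gli2 from 29.4 to 58.8 CPM, and the 3 without (clusters 9, 10 and 14) from 0.573 to 7.67 CPM. Smo ran from 26.64 to 47.4 CPM in the first and from 3.15 to 26.63 CPM in the second, ranges that all but touch. Ptch1 went the other way, from 1.64 to 7.93 CPM in the first and from 9.48 to 21.7 CPM in the second. Gli3, Gas1 and Sufu overlapped between these cluster groups, and Gli2, Smo and Ptch1 did not. Cluster 14, led by Rgs6 and Lrfn5, had the lowest Smo, at 3.15 and 7.03 CPM, beside Ptch1 at 14.6 and 21.7 CPM.

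**Figure D3:**
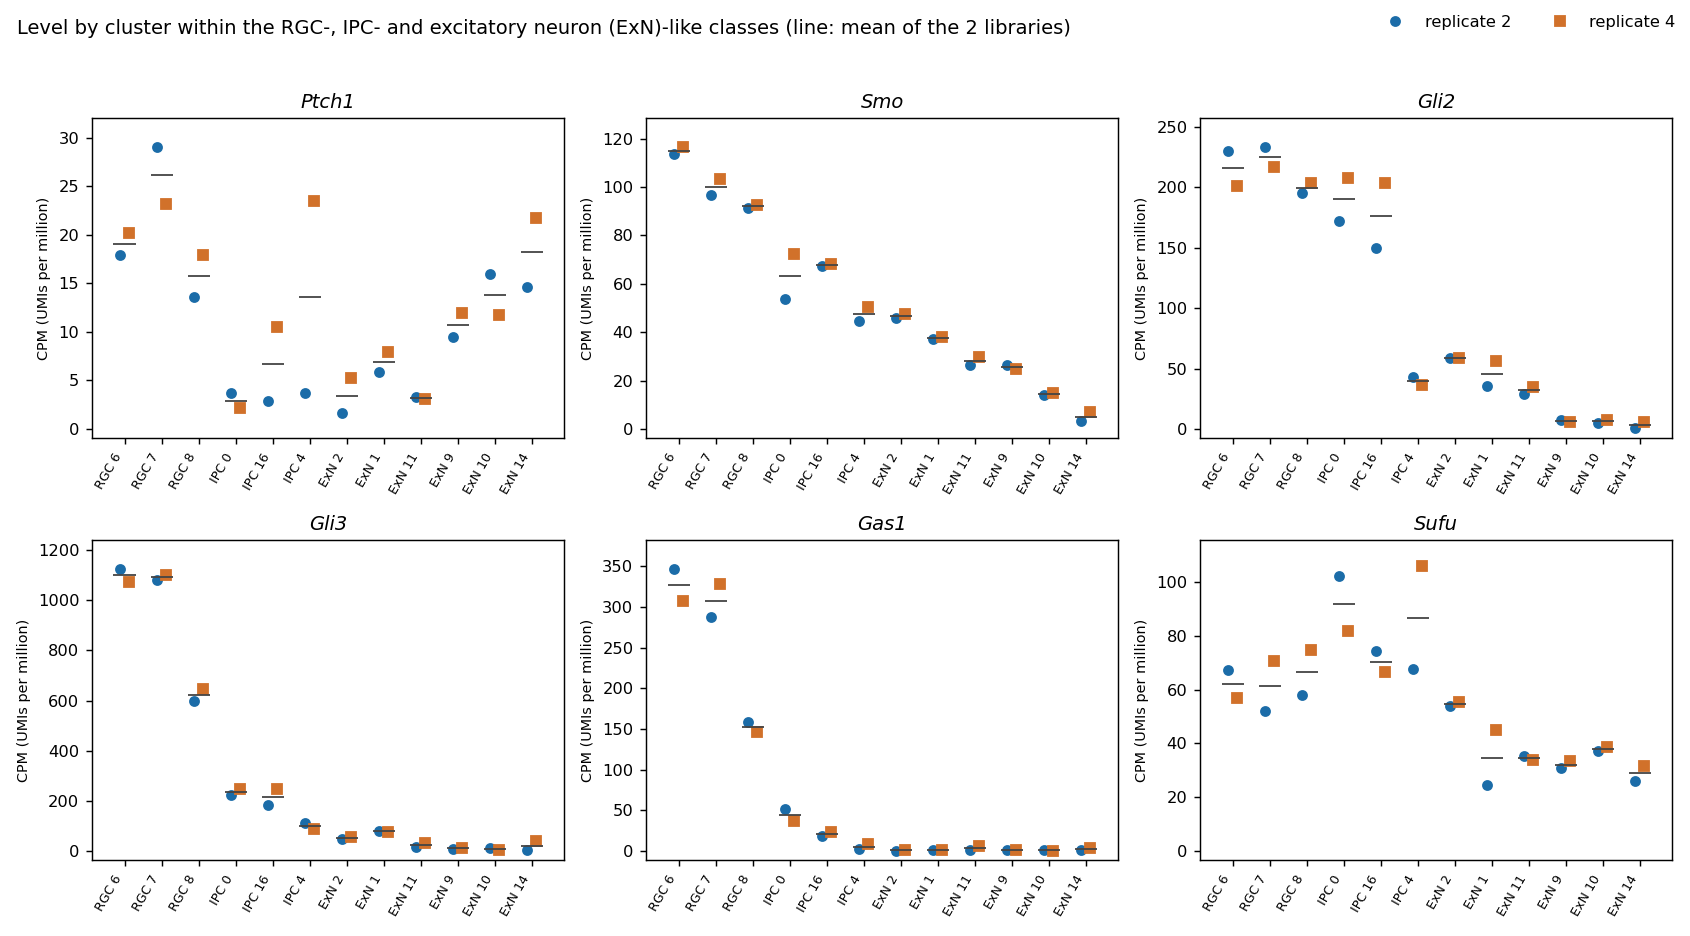
Level of 6 Hedgehog genes (vertical axis, CPM, scale differing between panels) in clusters of radial glia, intermediate progenitors and excitatory neurons (RGC, IPC and ExN), the neurons ordered by falling number of raised IPC markers (horizontal axis). Circles are replicate 2, squares replicate 4 and lines their mean. Gas1 and Gli3 decline within the RGC-like class at cluster 8, Gli2 at IPC-like cluster 4, and Ptch1 is higher in excitatory neuron-like clusters 9, 10 and 14 (9.48 to 21.7 CPM) than in clusters 1, 2 and 11 (1.64 to 7.93 CPM).

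Within RGC-like cells, Ptch1 and Gli3 ranked differently across groups called by cell cycle scores. Ptch1 was 34.6 and 27.1 CPM in G2M-like cells, 13.02 and 14.4 CPM in S-like cells and 15.2 and 18.8 CPM in G1-like cells, so the G2M-like values lay above the others in both libraries. Gli3 was 1110 and 1067 CPM in G2M-like and 1118 and 1048 CPM in S-like cells, against 736 and 844 CPM in G1-like cells. Gas1 was likewise lowest in G1-like cells, at 246 and 220 CPM, against 297 and 272 CPM in S-like and 320 and 334 CPM in G2M-like cells. Gli1 was 1.80 and 2.37 CPM in G2M-like cells on 6 and 13 UMIs, 0.620 and 0.730 CPM in S-like cells on 2 and 3 UMIs and 1.17 and 0.607 CPM in G1-like cells on 2 and 1 UMIs. In IPC-like cells Gli3 was 346 and 359 CPM in the 54 S-like cells, 141 and 208 CPM in G2M-like cells and 175 and 179 CPM in G1-like cells. These groups were not tested, and a phase call from scores alone does not show division.

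MGE interneurons, which reach the dorsal telencephalon from its ventral part, differed from excitatory neurons in both directions. Of the 6 genes, 2 were higher in MGE interneuron-like cells (7.79% of all genes were) and 2 lower (10.6% of all genes). Ptch1 was higher by 1.40 (SE 0.37, adjusted p = 0.0174) and Smo by 1.04 (SE 0.20, adjusted p = 0.00285). Gli3 was lower, with a log2 fold change of -4.33 (SE 0.66, adjusted p = 0.000527). On the 3 UMIs of MGE interneuron-like cells the pooled level of excitatory neuron-like cells was 20.5 times as high (exact 95% interval 7.01 to 99.7, for counting error only). The ratio holds for the class as drawn, without the 2 cells of cluster 3 with 36 Gli3 UMIs. Gli2, with 0 UMIs in MGE interneuron-like cells, was at least 16.7-fold lower (against 3 counts over the class, adjusted p = 0.0006). Gas1 was at least 1.43-fold lower by the same floor with both libraries pooled, and was not called (adjusted p = 0.134). Per library, the limit of counting error on 0 UMIs (2.96 and 3.32 CPM) exceeded the 1.20 and 2.37 CPM of excitatory neuron-like cells. With genes scaled within each library the fitted log2 fold change of Gas1 was 1.09, in the other direction and not called either (adjusted p = 0.431). Sufu at -0.95 (SE 0.33, adjusted p = 0.0639) was not called. Sufu was called lower in 6 of 15 alternatives (adjusted p from 0.000177 to 0.262) and Gas1 in 1, with all genes of at least 1 count (adjusted p = 0.0129, range 0.0129 to 0.431).

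Several of these calls rested on settings. Ptch1 lost its call with at most 5% mitochondrial UMIs (1.10, adjusted p = 0.0789, range over alternatives 0.00076 to 0.0789) and with split counts (1.27, adjusted p = 0.0517), while in thinned cells it was 2.07 (adjusted p = 0.00076). Smo lost its call in thinned cells (0.83, adjusted p = 0.151, range 2.70e-05 to 0.151). Gli3 was -1.52 and not called (adjusted p = 0.0699, range 3.63e-20 to 0.0699) when genes were scaled within each library before clustering. Its value was -3.49 with a minimum of 500 genes per cell and -2.51 under the limit of 5% mitochondrial UMIs. In thinned cells, where MGE interneuron-like cells had 0 Gli3 UMIs, it was at least 5.76-fold lower by the floor of 3 counts.

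Against radial glia, MGE interneuron-like cells were lower in 5 of the 6 genes and higher in 0, with 26.5% of all genes called lower and 24.1% higher. Gas1 was at least 232-fold lower and Gli2 at least 170-fold lower by the floor of 3 counts (adjusted p = 5.35e-07 and 9.04e-07). These bounds hold for the class as drawn here. With genes scaled within each library before clustering, the fitted log2 fold changes were -5.80 for Gas1 and -7.34 for Gli2, both still called. Gli3 had a log2 fold change of -9.48 (SE 0.56, adjusted p = 1.21e-07), and pooled UMIs put RGC-like cells 809 times as high (exact 95% interval 277 to 3924). It was -8.83 without replicate 2, -8.78 with at most 5% mitochondrial UMIs and -6.90 with genes scaled within each library. The log2 fold change was -1.53 for Sufu (SE 0.33, adjusted p = 0.00165) and -0.98 for Smo (SE 0.20, adjusted p = 0.00108). The Sufu value was -2.14 without replicate 2, and in thinned cells it was -0.93 and not called (adjusted p = 0.0666, range over alternatives 2.27e-08 to 0.0666). Ptch1 at 0.52 (SE 0.36, adjusted p = 0.246) was not called, but was in thinned cells (1.18, adjusted p = 0.0193, range 0.0193 to 0.714).

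Co-receptors were low in MGE interneuron-like cells as well. Boc had 0 and 1 UMIs there, against 202 and 203 CPM in RGC-like cells and 34.4 and 42.0 CPM in excitatory neuron-like cells, and was called lower in both comparisons. On this 1 UMI the pooled ratio was 477 to RGC-like cells (exact 95% interval 85.6 to 18855) and 90.6 to excitatory neuron-like cells (16.2 to 3579). Cdon, at 30.5 and 26.1 CPM, was called lower in both too (-5.02 and -1.92). Kif7, a ciliary kinesin that regulates Gli proteins, had 0 UMIs in MGE interneuron-like cells and was at least 6.68-fold lower than in RGC-like cells. Mycn was lower than in excitatory neuron-like cells, by a log2 fold change of -1.73. In all, 12 of 42 pathway genes were higher and 12 lower than in RGC-like cells, beside 24.1% and 26.5% of all genes. Against excitatory neuron-like cells 2 were higher and 6 lower, beside 7.79% and 10.6% of all genes. RGC markers Hopx, Pax6 and Slc1a3 were at 0 in MGE interneuron-like cells, and all 12 RGC markers summed to 307 and 358 CPM. In RGC-like cells they summed to 5833 and 5234 CPM. The 13 excitatory neuron markers summed to 2516 and 2680 CPM in MGE interneuron-like cells, against 8474 and 8503 CPM in excitatory neuron-like cells.

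GABAergic cells led by division genes were unlike the MGE interneuron-like cells. A sub-cluster of 53 cells led by Top2a, Ccnd2 and Mki67, with no MGE marker raised and 3 of 6 CGE and 3 of 9 striatal markers raised, made up 54.6% of the 97 GABAergic cells without a sub-class and 60.7% of their UMIs. It held 413 of their 415 Gli3 UMIs (99.5%), 171 of 174 Gli2 UMIs (98.3%) and 24 of 25 Gas1 UMIs (96%). Ptch1 (59 of 98), Smo (68 of 107) and Sufu (60 of 94) were shared about as the UMIs were. In replicate 4, which had 45 of the 53 cells, its levels were 408 CPM for Gli3, 179 CPM for Gli2 and 65.9 CPM for Ptch1, and the 8 cells of replicate 2 had 349, 100.3 and 15.8 CPM. Sub-cluster 4 (18 cells, led by Egfem1 and Etv1) had Ptch1 at 78.5 CPM in the 15 cells of replicate 2, beside 0 Gli3 UMIs, and its 3 cells of replicate 4 had 6 Ptch1 and 2 Gli3 UMIs.

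**Figure D4:**
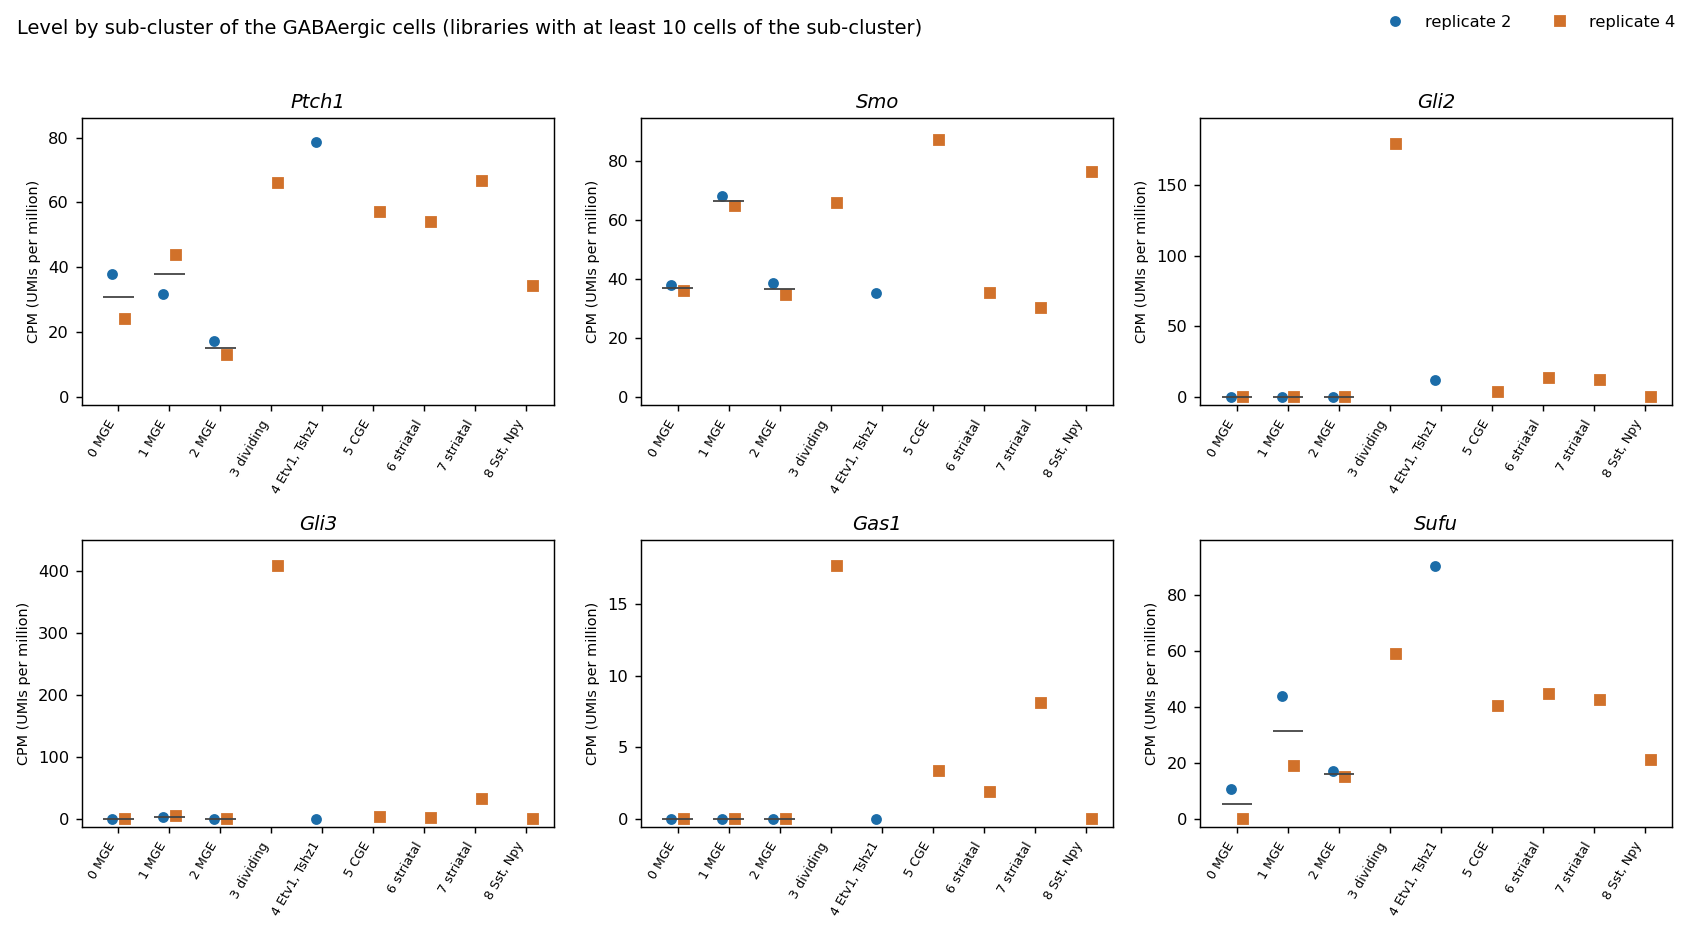
Level of 6 Hedgehog genes (vertical axis, CPM, scale differing between panels) in the 9 sub-clusters of GABAergic cells (horizontal axis), drawn for libraries with at least 10 cells of the sub-cluster. Circles are replicate 2, squares replicate 4 and lines their mean. Gli2 and Gli3 stand out in sub-cluster 3, led by Top2a and Mki67 (179 and 408 CPM in replicate 4), while Ptch1, Smo and Sufu are seen in most sub-clusters.

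Hem or choroid plexus-like cells, led by Ttr, had more Ptch1 and less Gli2 and Gli3 than radial glia. Compared with RGC-like cells, hem or choroid plexus-like cells were higher in 1 of the 6 genes and lower in 4, with 26.3% of all genes called higher and 18.4% lower. Ptch1 was higher by 2.27 (SE 0.32, adjusted p = 8.90e-05). The log2 fold change was -2.25 for Gas1 (SE 0.33, adjusted p = 0.000176), -1.93 for Gli3 (SE 0.32, adjusted p = 0.000355), -1.57 for Gli2 (SE 0.33, adjusted p = 0.0022) and -1.11 for Sufu (SE 0.33, adjusted p = 0.0142). Smo at 0.03 (SE 0.19, adjusted p = 0.92) was not called, with 90.2 and 97.2 CPM against 103 and 107 CPM. Sufu lost its call in thinned cells (-1.31, adjusted p = 0.13, range over alternatives 7.54e-06 to 0.13), and with genes scaled within each library Ptch1 was 1.58 and Gli3 -2.81. Fold changes carry the TMM scaling of edgeR and so can depart from the ratio of CPM, as for Smo here. The 12 marker genes of this class, led by Ttr, summed to 115764 and 97940 CPM. Their part in the departure was not tested.

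The 7 meningeal fibroblast markers summed to 82.0 and 80.5 CPM in hem or choroid plexus-like cells, with Lum at 0, against 15 and 10.8 CPM in RGC-like cells and 5998 and 6774 CPM in meningeal fibroblast-like cells. Ptch1 is also high in that class, and the part of such cells in the result was not tested. Of the 42 other pathway genes 17 were higher and 8 lower, beside 26.3% and 18.4% of all genes. By list, 8 of 10 primary cilium genes were higher and 0 lower, while co-receptors and membrane inhibitors gave 1 higher and 2 lower of 3. Lrp2, the endocytic receptor megalin that binds Shh, was higher by 5.95, at 61.3 and 43.0 CPM against 0.726 and 1.16 CPM, and Scube3 by 4.55. Scube1 had 0 UMIs in hem or choroid plexus-like cells, at least 5.73-fold below RGC-like cells (adjusted p = 0.0497, up to 0.387 over alternatives).

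Shares of cells were compared at an equal depth. After thinning each cell to 5000 UMIs, which left out 12 and 22 RGC-like cells, 4 and 10 IPC-like cells, 7 and 25 excitatory neuron-like cells and 1 and 7 MGE interneuron-like cells, a Gli3 UMI was found in 96.1% and 94.8% of RGC-like cells, in 54.2% and 44.8% of IPC-like cells, in 7.48% and 10.4% of excitatory neuron-like cells and in 0% of MGE interneuron-like cells. Unthinned, the Gli3 shares were 98.4% and 97.6% in RGC-like cells and 1.85% and 2.44% in MGE interneuron-like cells, whose median depths were 32378 and 25870 against 23450.5 and 10737 UMIs. A Gas1 UMI was found in 67.1% and 68.7% of thinned RGC-like cells, in 9.47% and 9.66% of IPC-like and in 0.591% and 0.896% of excitatory neuron-like cells, and in 92.6% and 91.3% of RGC-like cells unthinned. For Gli2 the thinned shares were 57.1% and 54.6% among RGC-like cells, against 44.2% and 46.2% among IPC-like cells. In MGE interneuron-like cells a Gli2 UMI was found in 0 of 128 thinned cells. It was found in 0 of 136 unthinned cells, which allows up to 2.21% of cells with a UMI at that depth. Ptch1 was found in 36.7% and 35.0% of thinned hem or choroid plexus-like, 7.79% and 7.94% of RGC-like, 2.95% and 3.84% of excitatory neuron-like and 2.63% and 3.45% of IPC-like cells. No class was taken to lack Ptch1, Smo or Sufu, so the part of free RNA in their lowest shares was not tested.

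**Figure D5:**
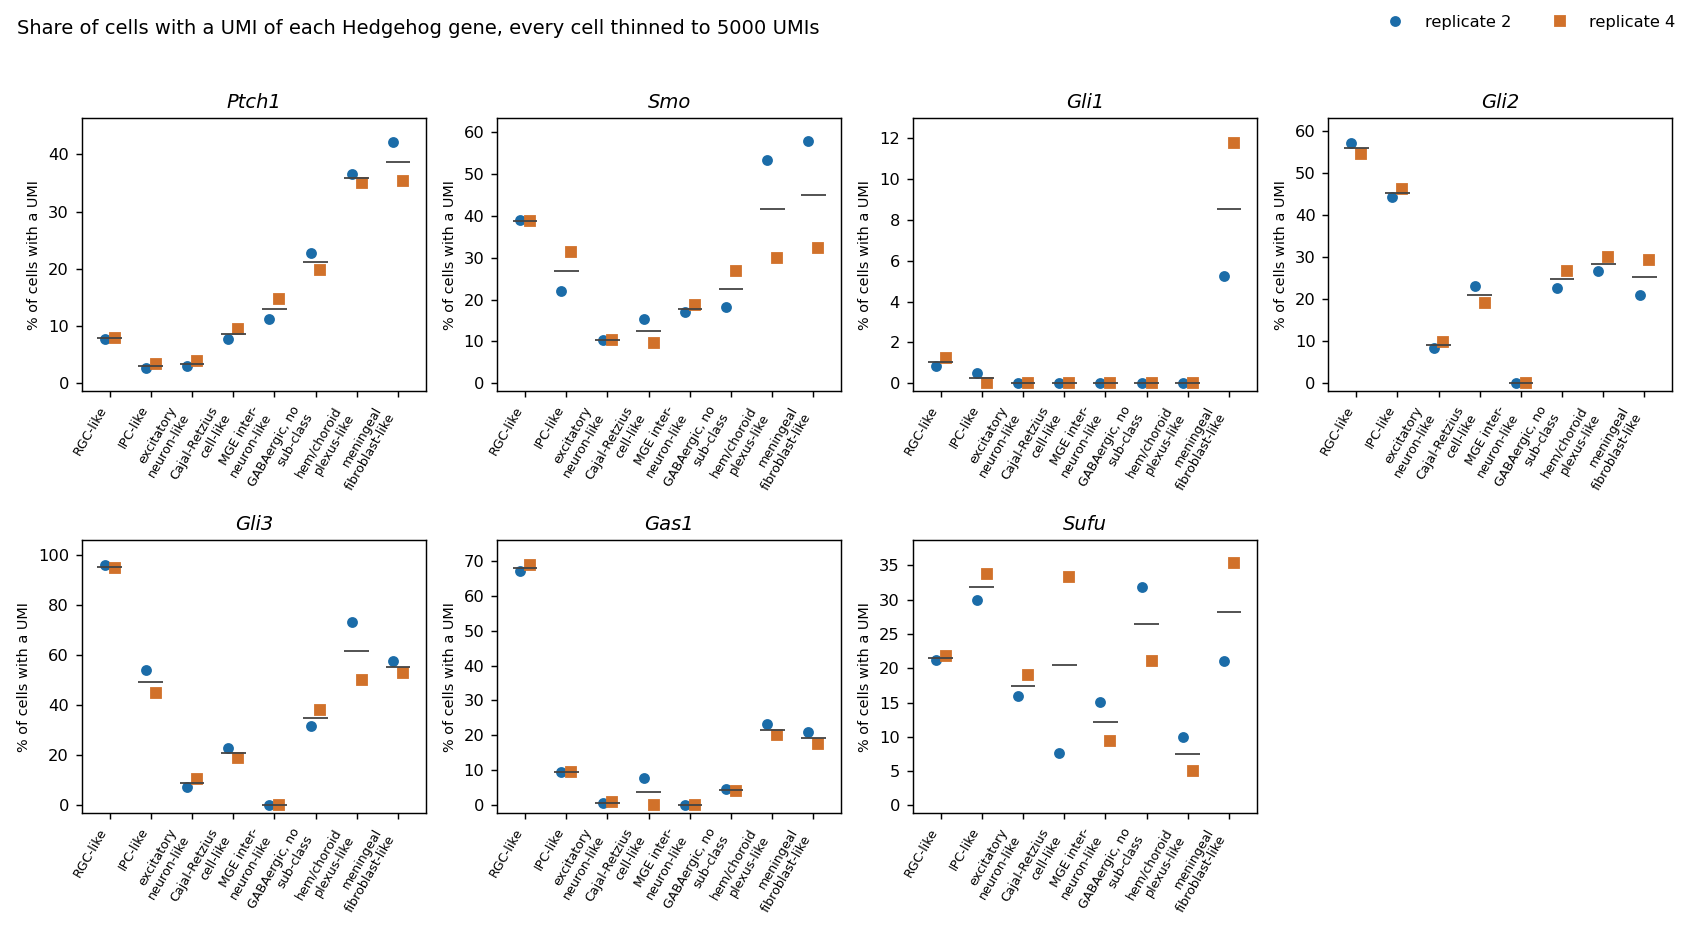
Share of cells with at least 1 UMI of each Hedgehog gene after thinning each cell to 5000 UMIs (vertical axis, percent, scale differing between panels) in 8 cell classes (horizontal axis). Circles are replicate 2, squares replicate 4 and lines their mean. Gli3 is found in 96.1% and 94.8% of RGC-like cells and in 0% of MGE interneuron-like cells, and Ptch1 most often in hem or choroid plexus-like and meningeal fibroblast-like cells.

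Genes with the most similar pattern were sought for each tested gene over the 16 class-by-library sums, by Pearson correlation of log2(CPM + 10). Cnbp (r = 0.976), Snrpb (0.973) and Ddx39 (0.969) were closest to Gli3, and Ncl (0.954), Notch3 (0.951) and Hmga2 (0.95) to Gas1. Gli2 was closest to Eif4a3 (0.927), Ppie (0.926) and Gli3 itself (0.926), the only pair within the Hedgehog set. Nedd4 (0.925), Wwtr1 (0.923) and Gstcd (0.916) led for Smo, Slc39a10 (0.878), Peg3 (0.878) and Plxnc1 (0.877) for Ptch1, and Xrcc5 (0.857), Cdc42ep4 (0.856) and Usp39 (0.848) for Sufu. The sums share libraries, and these values are descriptions.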

How the data were processed

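Single-cell RNA was measured in 2 WT libraries. The values the authors deposited are raw UMI counts per gene and barcode after the cell calling of Cell Ranger 7.0.0 on build mm10, per the submitters' processing notes, with no normalization. Whether intronic reads were counted is not given in the sources used here. Barcodes under 1000 genes or over 10% mitochondrial UMIs were left out, as were Scrublet doublets (14 and 15). Clusters came from scanpy 1.11.5 with leidenalg 0.10.2 (2000 variable genes, 30 components, 20 neighbours, resolution 1) without correction between libraries. A class name needed 3 or more raised markers (log2 ratio of at least 1 with 10 CPM added, in at least 25% of cells). Class names were assigned anew and need not match those of the study, and 160 cells of 2 shallow clusters stayed unnamed.

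UMIs were summed per library and class. The 8 classes with 10 or more cells in each library entered 1 fit of 16 sums (edgeR 4.0.16, R 4.3.3, quasi-likelihood test, TMM, filterByExpr, 12945 genes), with Benjamini-Hochberg adjustment over all genes and a threshold of 0.05. The fit was tested on simulated data, where in each comparison more of the calls were false than the threshold allows and most changes of the smaller size were missed. Every adjusted p in the text is of this kind unless DESeq2 1.42.0 or another setting is named. Alternatives were other cell filters, resolutions and scalings, thinning, count splitting, DESeq2, a library block, and each library left out. Both regroupings of a cluster were chosen after seeing the data. Leave-one-library values are ratios of CPM with 0.5 counts added and have no test.

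The 7 genes, the pathway lists and the markers were chosen with earlier results of these data known. Other pathway genes are named if they are ligands or have 1 of the 3 largest fold changes among called genes of a comparison, with the same sign in both libraries. Replicate numbers name libraries, so classes of the same number share a library. Over 28 pairs of classes, deviations of the same library correlated with r from 0.0246 to 0.32.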

Additional observations from a re-analysis of the deposited data

Results flagged for a closer look

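Hedgehog transcripts were also found in the 865 barcodes with under 1000 genes (442 in replicate 2, 423 in replicate 4), which the comparisons left out, except that an alternative took in those of at least 500 genes. Gli3 had 71 UMIs there, Gas1 55, Gli2 27, Smo 20, Ptch1 12 and Sufu 12, all above the 3 counts that a count of 0 allows. As a level, Gli3 was 45.7 and 39.9 CPM and Gas1 34.3 and 31.7 CPM in these barcodes. Whether they are damaged cells or droplets with free RNA was not tested.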

How the results depend on the processing

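Between 3 and 6 genes of the set were called in RGC-like against IPC-like cells over the alternatives, 5 to 7 in RGC-like and 5 to 6 in IPC-like against excitatory neuron-like cells, 3 to 6 in MGE interneuron-like cells against those neurons and 5 under each alternative against RGC-like cells, and 4 to 5 in hem or choroid plexus-like cells. Of 534 fold changes under alternatives with a test, 495 kept their direction and side of the threshold, 9 lost the call, 22 gained one and 8 reversed. The reversals were of values not called on either side: Gas1 in MGE interneurons against excitatory neurons was 1.09 with genes scaled within each library and below 0 under each other alternative. The MGE interneuron-like class as drawn here has 0 Gas1 UMIs, so the fitted value is no measure of size. Smo in hem or choroid plexus-like against RGC-like cells was -0.0593 at resolution 0.5, -0.24 when genes with 1 count or more were tested, -0.0485 with a minimum of 500 genes, -0.10 with count splitting, -0.0295 with doublets kept, -0.11 with scaling within each library and -0.0867 in a fit of the compared classes alone. The cause of these changes was not tested. The 9 lost calls stand beside their results. The library as a replicate block changed only the call of Sufu in RGC-like against excitatory neuron-like cells (0.59, adjusted p = 0.0466).

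Thinning, which left 8743 genes to test, gave 2172 called genes against 5793 in hem or choroid plexus-like cells, 2608 against 4174 in RGC-like against IPC-like cells, 4386 against 6912 and 2497 against 4233 in these against excitatory neuron-like cells, and 3874 against 6548 in MGE interneuron-like against RGC-like cells. All genes of at least 1 count gave 3585 against 2380 in MGE interneurons against excitatory neurons, and a fit of the compared classes alone 6475 against 4233 in IPC-like against excitatory neuron-like cells. With all genes, the share of calls that were higher was 38.8% against 51.4% in IPC-like and 25.6% against 42.4% in MGE interneuron-like cells, each against excitatory neurons, and 48.1% against 58.9% in hem or choroid plexus-like cells (48.7% with doublets kept). The median over all genes there moved by -0.17 with doublets kept and by -0.17 with genes scaled within each library. With all genes of at least 1 count it moved by -0.34 in MGE interneuron-like and -0.17 in IPC-like cells, each against excitatory neurons. The limit of 5% mitochondrial UMIs gave no value for the hem or choroid plexus-like comparison. Depth limits Gli1, with 51 UMIs in all, and the genes at 0 in MGE interneuron-like cells.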

Other observations

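Cluster 12, a shallow cluster of 61 cells with 8 of 12 RGC markers raised, was left unnamed and entered no comparison as drawn here, but an alternative counted it as RGC-like. Its Gli3 level was 1446 and 1845 CPM, its Gli2 level 346 and 341 CPM and its Gas1 level 207 and 193 CPM. Barcodes over the mitochondrial limit (59 and 195) had Gli3 at 308 and 438 CPM, Gas1 at 112 and 102 CPM and Ptch1 at 32.3 and 37.97 CPM.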
